A study of Homo sapiens with 8 samples.

Results

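RASSF1 and 9 neighbouring genes at 3p21.3 (ZMYND10, TUSC2, NPRL2, CYB561D2, TMEM115, HYAL1, HYAL2, HYAL3 and NAA80) were examined for methylated DNA in 8 neuroblastoma (NB) cell lines. These 10 genes, out of 64486 in the annotation, were listed by position and lie side by side between bases 50330262 and 50396952 of chromosome 3 (build GRCh37), a stretch of 66691 bp. All 10 were found, with 71 distinct transcriptional start sites (TSS) among them, and every gene is accounted for below.

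The study sought DNA methylation markers of prognosis in NB, a childhood tumor of the sympathetic nervous system. Genomic DNA of each line was sheared, methylated pieces were pulled down with the MBD2 protein, whose methyl-CpG-binding domain gives MBD-seq its name, and peaks of the sequenced pieces were called per line. The lines with MYCN amplification (MNA) were N206, CHP-902R, LAN-2 (LA-N-2 in the labels) and IMR-32, and the lines with single copy MYCN were SK-N-AS, CLB-GA, SJNB-1 and SH-SY5Y. Each line was an established culture represented by 1 sample, so all spreads and p-values refer to differences between lines.

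RASSF1 encodes several proteins from separate promoters. The long isoforms, among them RASSF1A, start in a CpG island at the 5′ end of the gene and act as scaffolds that engage the Hippo kinases, whereas RASSF1C starts in another CpG island further downstream. Methylation of the RASSF1A island is a classical route of tumor suppressor silencing in many cancers. MBD capture retains fragments that carry several methylated CpGs, so a peak points to captured methylated DNA, though its presence also depends on depth and copy number. The absence of a peak may also reflect few CpGs, few reads or reads that do not map uniquely.

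The sequences on which the RASSF1 and ZMYND10 results turn are shown first, on the minus strand on which these genes are transcribed, with every CpG in capitals. The first is the DNA between RASSF1 and ZMYND10 (chr3:50378412-50378536), with 14 CpGs, which a peak covered entirely in 6 lines and touched in 7. The second is the start of the first intron of the long isoforms (chr3:50377737-50377986), with 22 CpGs, touched by a peak in the same 7 lines and covered entirely in 4. The third lies directly upstream of the TSS of the short isoform RASSF1C (chr3:50374896-50375145), with 25 CpGs and no peak in any line. The fourth lies directly upstream of the ZMYND10 TSS (chr3:50383164-50383413), with 20 CpGs, and was covered entirely in 3 lines. The fifth lies upstream of the first TUSC2 TSS (chr3:50365683-50365932), with 15 CpGs and no peak in any line.
RASSF1 long isoform, upstream: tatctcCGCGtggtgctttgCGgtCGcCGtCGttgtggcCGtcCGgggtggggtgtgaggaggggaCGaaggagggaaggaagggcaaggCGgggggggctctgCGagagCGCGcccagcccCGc
RASSF1 long isoform, first intron: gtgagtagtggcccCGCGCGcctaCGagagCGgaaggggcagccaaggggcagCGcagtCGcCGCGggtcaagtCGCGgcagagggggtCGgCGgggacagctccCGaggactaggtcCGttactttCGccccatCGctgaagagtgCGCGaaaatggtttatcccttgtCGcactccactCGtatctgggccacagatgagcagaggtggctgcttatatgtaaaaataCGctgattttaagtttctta
RASSF1C, upstream: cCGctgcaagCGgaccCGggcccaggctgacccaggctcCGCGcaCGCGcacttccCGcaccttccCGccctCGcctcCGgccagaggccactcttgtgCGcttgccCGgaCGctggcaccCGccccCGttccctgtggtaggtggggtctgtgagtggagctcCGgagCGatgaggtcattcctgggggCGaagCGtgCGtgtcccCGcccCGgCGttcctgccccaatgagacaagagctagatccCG
ZMYND10, upstream: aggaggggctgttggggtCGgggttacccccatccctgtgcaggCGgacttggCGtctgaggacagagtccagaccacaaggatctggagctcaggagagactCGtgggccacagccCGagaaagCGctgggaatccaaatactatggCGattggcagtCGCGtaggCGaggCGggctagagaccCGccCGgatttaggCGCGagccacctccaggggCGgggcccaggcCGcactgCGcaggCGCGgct
TUSC2, upstream: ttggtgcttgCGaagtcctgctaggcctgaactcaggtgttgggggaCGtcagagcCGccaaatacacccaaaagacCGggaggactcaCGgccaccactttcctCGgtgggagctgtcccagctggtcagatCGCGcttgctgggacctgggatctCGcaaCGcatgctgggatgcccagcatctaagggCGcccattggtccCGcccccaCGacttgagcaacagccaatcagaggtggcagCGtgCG

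The first stretch is 125 bp long and the others 250 bp. The RASSF1C stretch, with no peak, is thus denser in CpG than the first intron and the ZMYND10 stretch, which had peaks. It is less dense than the first stretch, between RASSF1 and ZMYND10, which also had peaks. The stretches with peaks thus lay on both sides of the RASSF1C stretch in CpG density.

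The lists held between 70816 and 112412 peaks per line, each with a score of at least 50 from the peak caller, where a higher score stands for a smaller p-value. The lists give no read counts, so the depth of each line is not known from them and no counting interval can be given. Within 1 Mb of MYCN, peaks covered 8.68% to 19.8% of the sequence in the MNA lines and 1.87% to 4.76% in the single copy lines. Peak cover there thus moved with MYCN status. Copy number at 3p was not measured here, and its part in the results below was not tested.

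**Figure D1:**
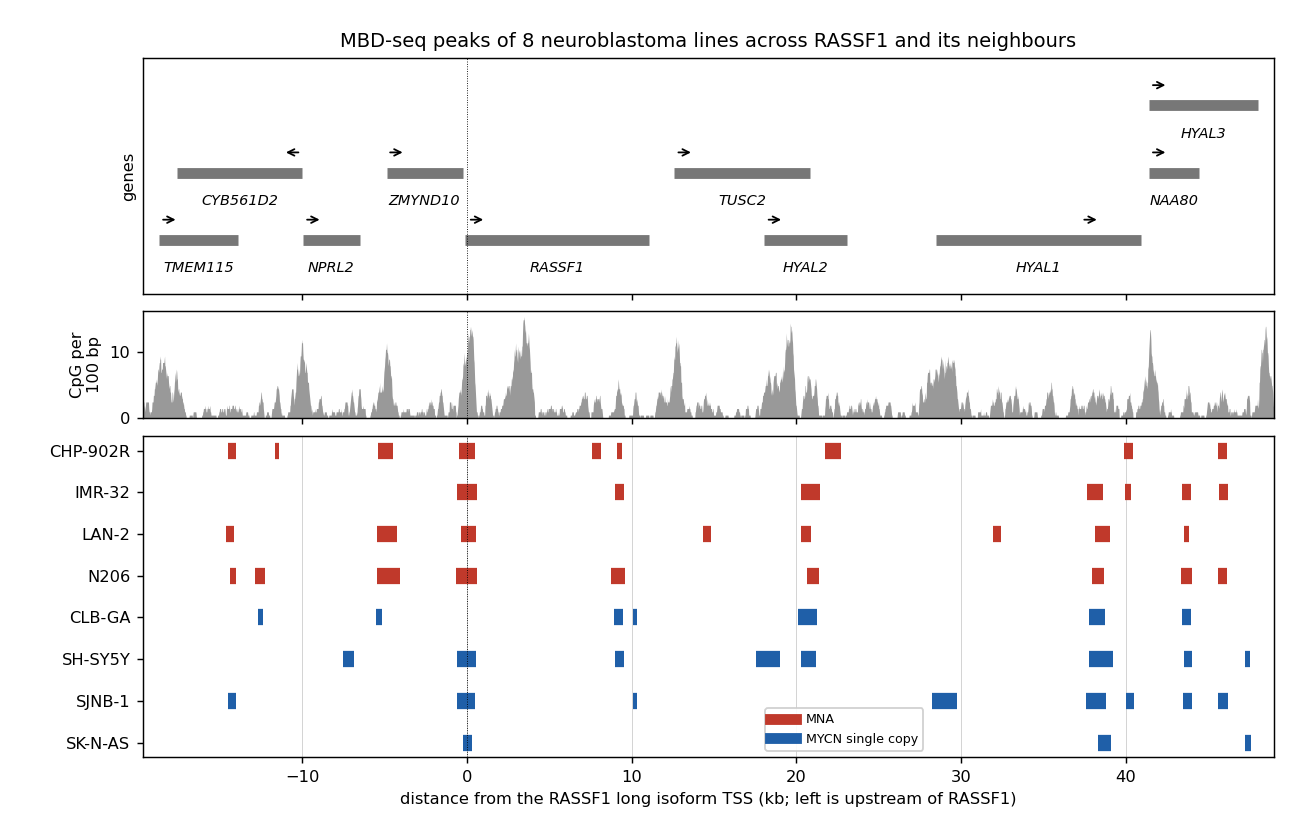
Genes (grey bars, arrows at the canonical TSS in the direction of transcription), CpGs per 100 bp in sliding intervals, and the 59 MBD-seq peaks of the 8 lines (red, MNA; blue, MYCN single copy), against the distance in kb from the TSS of the RASSF1 long isoform. Peaks of 7 lines stack up at 0 kb, while the CpG-dense island some 3 kb downstream carries none.

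RASSF1 (ENSG00000068028, chr3:50367213-50378411, minus strand) carried a peak at the promoter of its long isoforms in 7 of the 8 lines, where 2.61% of all protein-coding genes had a canonical promoter peak in at least 7, and at the promoters of its short isoforms in none. A promoter was taken to begin 1500 bp before a TSS and end 1000 bp after it, and any peak that shared at least 1 bp with it counted. The long window surrounds the TSS at base 50378272, whose transcript encodes a protein of 344 residues, 5 bp from the start of the canonical transcript of 340 residues. A middle start (TSS at 50375664, 189 residues) lies 2608 bp downstream and the RASSF1C start (TSS at 50374895, 270 residues) 3377 bp downstream. The short windows overlap each other but not the long one.

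Within the long window, peaks of the MNA lines covered 1234 bp in IMR-32, 1229 bp in N206, 999 bp in CHP-902R and 933 bp in LAN-2. Those of the single copy lines covered 1186 bp in SH-SY5Y, 1142 bp in SJNB-1, 537 bp in SK-N-AS and 0 bp in CLB-GA. All MNA lines and SH-SY5Y and SJNB-1 thus had a broad peak, SK-N-AS a narrow one and CLB-GA none, and the ranges of the MNA and single copy lines overlapped. Both short windows were at 0 bp in all 8 lines.

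The mean covered length was 907.5 ± 433.0 bp (SD, n = 8) in the long window against 0 bp in the short window. The difference was positive in 7 of 8 lines and 0 in CLB-GA, and an exact permutation test that flips the sign within each line, two-sided, gave p = 0.0156. The smallest p this test allows with 8 lines is 0.00781. With the short window at 0 bp throughout, no difference could be negative, so this p depends only on how many lines had the long peak. When peaks scoring below 100 were left out, LAN-2 and SJNB-1 kept the peak, and the mean fell to 259.4 bp (exact permutation p = 0.5). With every list cut to its 70816 highest-scoring peaks, 5 lines kept it, and the mean was 686.1 bp (exact permutation p = 0.0625). These are the smallest p possible with 2 and 5 nonzero lines.

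CpG content did not follow this order. The long window holds 112 CpGs, the middle window 138 and the RASSF1C window 160. Single reads of 45 bp could be placed uniquely over 100% of the long window, 90.9% of the middle window and 95.0% of the RASSF1C window. The study sequenced its reads in pairs, and the placing of pairs was not computed here or below. In the 7 lines with the long peak, the nearest peak to the middle TSS was 1994 to 2312 bp away and the nearest to the RASSF1C TSS 2763 to 3081 bp away, in every case the long peak itself. In CLB-GA these distances were 6324 and 5555 bp.

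Of 6049 protein-coding genes with 2 or more separated coding start regions, 60 had a peak over the first in at least 7 lines and none at the next. This is 0.992%, RASSF1 included. The cutoff of 7 lines is the count of RASSF1 itself, so the share is given as a description. A window without any peak was common, as 50.8% of canonical promoters of protein-coding genes had none in any line. For the canonical promoter alone, the share with a peak in at least 7 lines was 2.61% of 19881 protein-coding genes and 2.84% of the 13566 whose promoter was CpG-rich, defined as holding a 500-bp interval with at least 55% GC and an observed to expected CpG ratio of at least 0.75. RASSF1 met this definition.

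**Figure D2:**
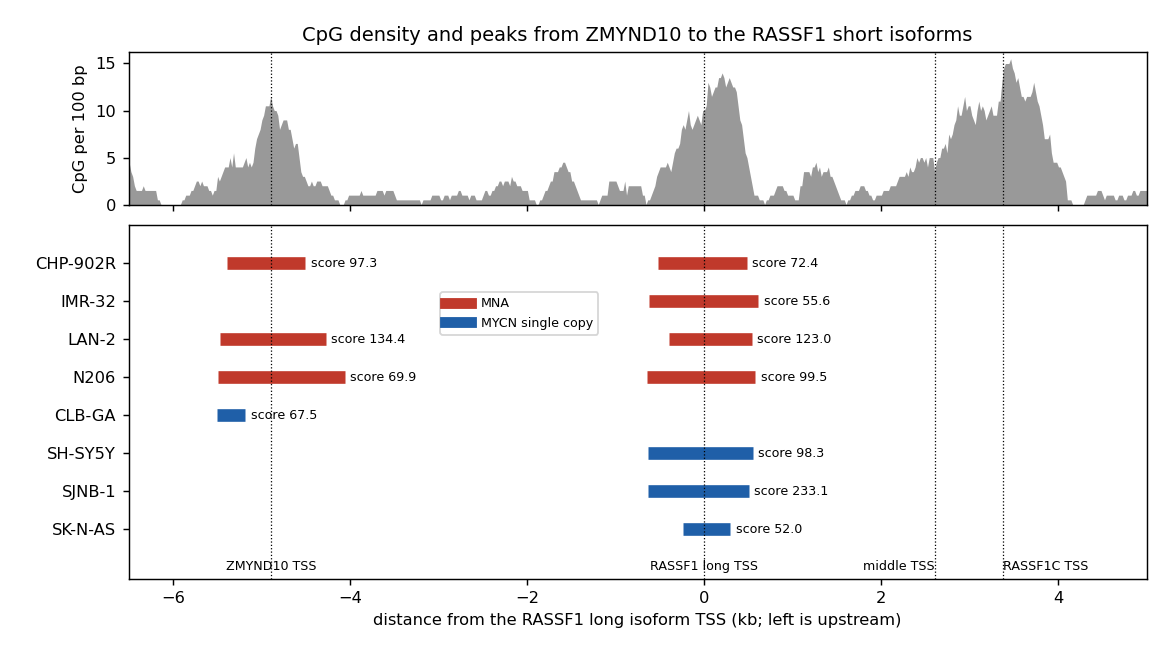
CpGs per 100 bp (grey, sliding intervals) and peaks of each line with their scores (red, MNA; blue, MYCN single copy) against the distance in kb from the RASSF1 long isoform TSS. Dotted lines mark the ZMYND10 TSS and the RASSF1 start sites: the peaks of 7 lines straddle the long start, those of CHP-902R, LAN-2 and N206 straddle the ZMYND10 start, and neither short start has a peak.

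The RASSF1 peaks agreed closely in position and differed widely in score. They reached 240 to 648 bp upstream and 296 to 614 bp downstream of the long TSS and contained 59 CpGs in SK-N-AS and 88 to 96 in the other lines. The interval that all 7 shared was that of the SK-N-AS peak (chr3:50377976-50378512). This interval of 537 bp takes in the first coding exon, has 59 CpGs, 73.4% GC and 11.0 CpGs per 100 bp, and is entirely unique for 45-bp reads.

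The scores in the MNA lines were 123 in LAN-2, 99.5 in N206, 72.4 in CHP-902R and 55.6 in IMR-32. In the single copy lines they were 233 in SJNB-1, 98.3 in SH-SY5Y and 52.0 in SK-N-AS. The SJNB-1 peak stood at percentile 99.7 of the scores in its own list, whereas those of IMR-32 and SK-N-AS stood at percentiles 14.3 and 7.91. The highest and the lowest score both fell among the single copy lines. IMR-32 had the widest RASSF1 peak in spite of a score near the threshold, so breadth and score were not ordered alike.

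CLB-GA, the line with no promoter peak, still had peaks inside RASSF1. Over coding exons further downstream, a peak between bases 50368683 and 50369551 was present in N206, IMR-32, CHP-902R, SH-SY5Y and CLB-GA, with scores of 66.6 to 103. Another between 50367933 and 50368221 was present in CLB-GA and SJNB-1. A peak in an intron (50370113 to 50370654) occurred in CHP-902R alone, with a score of 50.7. Counting these, every line had a peak in the RASSF1 body, and covered from 3.89% of it in SK-N-AS to 14.2% in N206.

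ZMYND10 (ENSG00000004838, chr3:50378541-50383163, minus strand), which is needed to assemble the dynein arms of motile cilia and is itself a candidate tumor suppressor, is the upstream neighbour of RASSF1. In the MNA lines, 1430 bp of its promoter window were covered in N206, 1196 bp in LAN-2, 889 bp in CHP-902R and 0 bp in IMR-32. In the single copy lines, 322 bp were covered in CLB-GA and 0 bp in SK-N-AS, SJNB-1 and SH-SY5Y. The ranges overlapped through IMR-32, an MNA line with no peak, and CLB-GA, a single copy line with one.

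The peaks of CHP-902R, LAN-2 and N206 crossed the TSS, whereas that of CLB-GA (chr3:50383454-50383775) lay wholly upstream of it. Of the 4 MNA lines 3 had a peak, and of the 4 single copy lines 1 had one (Fisher's exact test, two-sided, p = 0.486, Benjamini-Hochberg adjusted p = 1 over the 109436 TSS windows with a peak). The smallest p this design allows is 0.0286, for 4 lines against 0, which 0.316% of those windows had. CLB-GA was the single line with a peak at ZMYND10 and none at RASSF1, and SK-N-AS, SH-SY5Y, SJNB-1 and IMR-32 had the reverse, so the neighbouring islands carried peaks together in CHP-902R, LAN-2 and N206.

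The 3′ end of ZMYND10 lies 130 bp from the first base of RASSF1, and the RASSF1 promoter peak ran into it in all lines that had this peak but SK-N-AS. The ZMYND10 body therefore had a peak in 6 lines, 4 MNA and 2 single copy (exact Fisher p = 0.429, adjusted p = 1). In IMR-32, SH-SY5Y and SJNB-1 it was the RASSF1 peak alone.

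TUSC2, NPRL2, CYB561D2 and TMEM115 had no peak at their canonical promoters in any line. TUSC2 (chr3:50357458-50365682, minus strand) encodes a small mitochondrial protein and NPRL2 (chr3:50384761-50388257, minus strand) a subunit of GATOR1, the complex that restrains mTORC1 when amino acids are short. CYB561D2 (chr3:50388276-50395891, plus strand) encodes a membrane protein of the cytochrome b561 family and TMEM115 (chr3:50392181-50396952, minus strand) a Golgi membrane protein. Their windows hold 3.96, 3.72, 3.84 and 4.12 CpGs per 100 bp, compared with 4.44 for the canonical RASSF1 window and 3.24 for that of ZMYND10. The windows without peaks were thus richer in CpG than that of ZMYND10 and poorer than that of RASSF1, and the part of CpG content in the absence of peaks was not tested.

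None of the 6 TSS of TUSC2, the 5 of CYB561D2 or the single TSS of TMEM115 had a peak in its window. The canonical starts of NPRL2 (50388206, minus strand) and CYB561D2 (50388293, plus strand) face away from each other 87 bp apart and share most of their windows. Of the 16 NPRL2 start sites, 9 had a peak in reach. Those of the upstream group were reached in CHP-902R, and the internal starts in SH-SY5Y, where the start at 50386560 had 270 bp of its window covered by a peak over NPRL2 coding exons (chr3:50385115-50385829, score 75.5).

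In CHP-902R the peak in reach of the NPRL2 starts lay in a CYB561D2 intron (chr3:50389708-50389960) and had a score of 168, at percentile 98.5 of its list. With single 45-bp reads, 44.5% of that interval can be placed uniquely. Its score exceeded that of every other peak of CHP-902R in the cluster. The canonical NPRL2 window ended at base 50389706, just short of this peak, so its lack of a peak in CHP-902R rests on the window edge.

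Away from the promoters, TMEM115 had a peak over its 3′ exon (50392305 to 50392905) in N206, LAN-2, CHP-902R and SJNB-1, 3 MNA lines and 1 single copy line (exact Fisher p = 0.486, adjusted p = 1). One CYB561D2 transcript runs over this exon, so the peak counted for both gene bodies. CYB561D2 itself had a peak over a coding exon (50390571 to 50391136) in N206 and CLB-GA. A TUSC2 transcript likewise extends over HYAL2, and all 5 lines with a peak in the TUSC2 body had one in that overlap. A peak over the TUSC2 coding exons themselves (50363458 to 50363929, score 62.3) was seen in LAN-2.

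The hyaluronidase genes had peaks over coding exons in most lines. This was not particular to them, as 52 of the 59 peaks of the cluster overlapped a coding exon of a member gene. All hyaluronidase genes here are transcribed from the minus strand. HYAL1 (chr3:50337321-50349812) encodes the lysosomal hyaluronidase, HYAL2 (chr3:50355221-50360213) a hyaluronidase anchored at the cell surface and HYAL3 (chr3:50330262-50336836) a further member of the family. NAA80 (chr3:50333833-50336847), which overlaps HYAL3, encodes the enzyme that acetylates the amino terminus of actin. The HYAL1 window held 595 bp of peak in IMR-32, 310 bp in N206, 115 bp in LAN-2 and 0 bp in CHP-902R. In the single copy lines it held 685 bp in SJNB-1, 520 bp in CLB-GA, 464 bp in SH-SY5Y and 0 bp in SK-N-AS. Each group thus had 1 line at 0 bp and 3 with a peak (exact Fisher p = 1), and the ranges overlapped.

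This window holds 1.80 CpGs per 100 bp and was not CpG-rich. The peak belonged to a larger one over a HYAL1 coding exon (50339041 to 50340689), present in every line but CHP-902R. Its score ran from 59.7 in IMR-32 to 202 in SH-SY5Y, the latter at percentile 99.4 of its list. The 301 bp common to all 7 lines (chr3:50339667-50339967) hold 3.65 CpGs per 100 bp, compared with 11.0 in the common RASSF1 interval. The alternative first exon of HYAL1 (TSS at 50349812) had 1245 bp covered in SJNB-1 alone, by a peak of which 23.6% can be placed uniquely with single 45-bp reads.

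HYAL3 and NAA80 share a canonical TSS at 50336836. Their window was covered over 495 bp in CHP-902R, 337 bp in IMR-32 and 536 bp in SJNB-1 and over 0 bp in the other 5 lines, in each case by a peak within the coding part of HYAL1. The shared CpG-rich start itself was free of peaks. Further into these genes, a peak over the NAA80 coding exon (50334223 to 50334938, scores 55.8 to 83.0) was present in 6 lines, all but CHP-902R and SK-N-AS, and one over a HYAL3 coding exon (50332030 to 50332669, scores 54.5 to 87.6) in CHP-902R, IMR-32, N206 and SJNB-1. A peak over another HYAL3 coding exon (50330660 to 50331044, scores 50.2 to 59.5) was present in SH-SY5Y and SK-N-AS, and in SK-N-AS it was the sole peak in the HYAL3 body.

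At HYAL2, the canonical window was covered in SH-SY5Y alone, over 1485 bp, by a wide peak of low score (50359256 to 50360740, score 56.9, 64 CpGs). A peak over the HYAL2 coding exons (50356853 to 50358156, scores 57.5 to 121) was present in N206, LAN-2, IMR-32, SH-SY5Y and CLB-GA. CHP-902R had one nearer the 3′ end of the gene (50355552 to 50356511, score 86.2). The HYAL2 body hence had a peak in 4 MNA and 2 single copy lines (exact Fisher p = 0.429, adjusted p = 1).

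**Figure D3:**
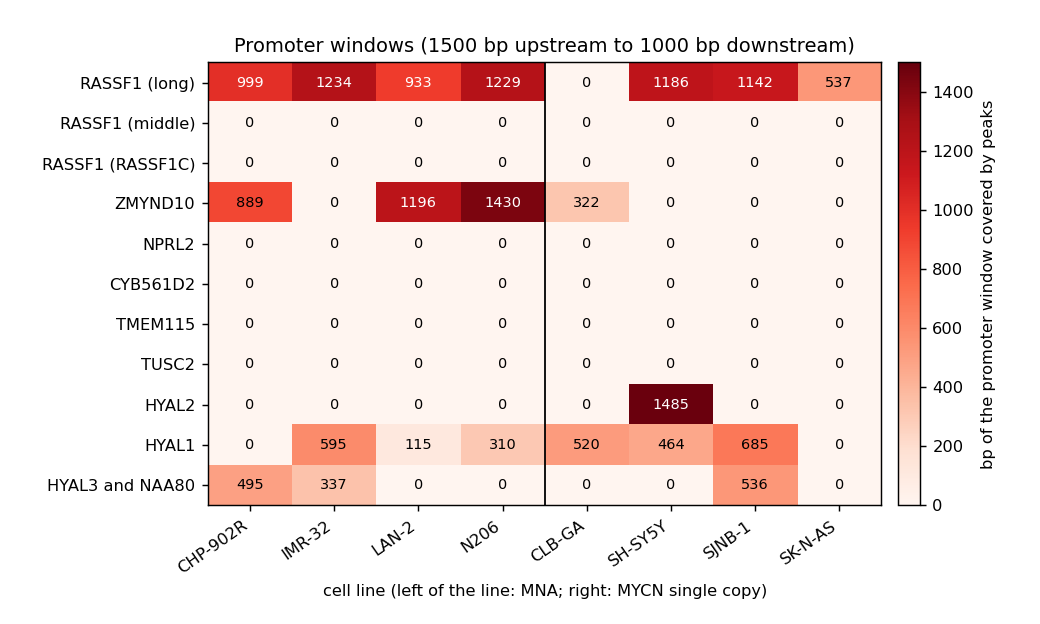
Length in bp of each promoter window (1500 bp upstream to 1000 bp downstream of the TSS) covered by peaks, for the RASSF1 start sites and the canonical TSS of the other genes (rows) in each cell line (columns, MNA left of the vertical line). The long RASSF1 window is covered over 537 to 1234 bp in 7 lines, and the middle, RASSF1C, NPRL2, CYB561D2, TMEM115 and TUSC2 rows are at 0 bp throughout.

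Counted over the 10 genes, 6 had a peak at the canonical promoter in at least 1 line, against 49.2% of all protein-coding genes. In at least 2 lines 5 had one, against 31.0% of all. Of protein-coding genes with a CpG-rich promoter 52.1% had one in at least 1 line, but HYAL1, HYAL2 and TMEM115 are not in that set. Of the members in it, RASSF1, ZMYND10, HYAL3 and NAA80 had a peak, and TUSC2, NPRL2 and CYB561D2 had none. HYAL3 and NAA80 enter all these counts through the same window. The median was 2 lines per gene, compared with 0 over all protein-coding genes. It also counts the shared window for both genes, and would be lower with that window counted once. RASSF1 and HYAL1 were the 2 genes with a peak in at least 6 lines, a mark met by 5.16% of all.

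All 10 genes had a peak in the gene body in at least 1 line, as did 88.3% of protein-coding genes, and all but NPRL2 in at least 4 lines, as did 71.9%. No promoter window or body of these genes separated the MNA from the single copy lines. Of the 37205 gene bodies with a peak in any line, 0.207% showed a separation of 4 lines against 0, and the Benjamini-Hochberg adjusted p was 1 for every window and body by the Fisher test. Such a separation gives the smallest p of this design, 0.0286 (Fisher's exact test). Adjusted over so many windows or bodies, it could pass only if a large part of them were separated, so the adjusted test could not call single genes. At an unadjusted p below 0.05, 346 windows and 77 bodies were found.

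The 59 peaks of the cluster formed 20 regions, of which 8 had a peak in 1 line, 3 in 2, 1 in 3, 3 in 4, 2 in 5, 1 in 6 and 2 in 7. The 2 regions in 7 lines were the RASSF1 long promoter and the HYAL1 coding exon, and no region was shared by all 8. Of the 59 peaks, 52 (88.1%) overlapped a coding exon of one of the 10 genes. Coding bases make up 16.1% of the cluster but 34.6% (CHP-902R) to 75.6% (CLB-GA) of the bases under peaks. In every line a larger share of the coding than of the noncoding bases lay under peaks, from 9.29% against 1.29% in SK-N-AS to 37.7% against 5.56% in N206. Coding exons also hold more CpGs than introns in general, and no adjustment for CpG content was made here.

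Peaks covered 10.7% of the cluster in N206, 8.33% in CHP-902R, 8.03% in LAN-2 and 7.94% in IMR-32. In the single copy lines they covered 10.7% in SH-SY5Y, 9.58% in SJNB-1, 6.23% in CLB-GA and 2.58% in SK-N-AS. The means were 8.76 ± 1.32% (SD, n = 4) in the MNA and 7.26 ± 3.65% (SD, n = 4) in the single copy lines, a difference smaller than the spread of the latter. SK-N-AS stood lowest, with 3 peaks against 7 to 9 in the other lines.

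The cluster was covered more than the 1 Mb on either side and more than the genome in all 8 lines. The flanks ranged from 3.04% to 4.25% in the MNA lines and from 1.23% to 3.56% in the single copy lines, with the lowest values in CLB-GA (1.23%) and SK-N-AS (1.24%). These are the line without the RASSF1 promoter peak and the line with the narrowest one. Over the genome, CLB-GA had 1.296% and SK-N-AS 1.53% covered, within the 1.28% to 1.97% of all lines, and the part of the low cover around the cluster in the RASSF1 values of these lines was not tested.

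**Figure D4:**
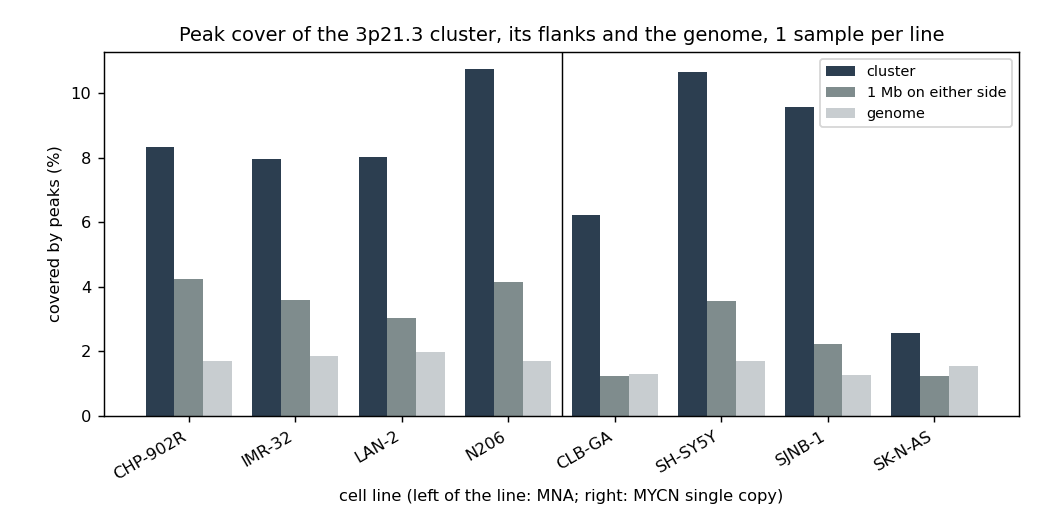
Percentage of the sequence covered by peaks in the 3p21.3 cluster (dark), in 1 Mb on either side (grey) and in the genome (light) for each line, 1 sample per bar, MNA lines left of the vertical line. Cluster bars exceed the flank bars in all 8 lines and are lowest in SK-N-AS at 2.58%.

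Genes of the same neighbourhood, family or pathway had fewer lines with a peak at the canonical promoter than RASSF1 in every case but MIOS. When a peak at any TSS of a gene counted, RASSF1 stayed at 7 lines, and ZMYND10 and HYAL3 of the cluster also reached 7. HYAL1 had 6 on this count, HYAL2 5, NAA80 3, NPRL2 2, and TUSC2, CYB561D2 and TMEM115 0. For ZMYND10, the start at 50379879 had 13 to 42 bp covered, by the RASSF1 peak, in IMR-32, N206, SH-SY5Y and SJNB-1. Outside the cluster, RBM6, AMOTL2, DEPDC5 and MIOS had 8. GNAI2, RBM5, WWC1, SEH1L, SEC13, CEMIP and CD44 had 7. These outside genes were named after their values were seen. Of all protein-coding genes, 49.2% had a peak at the canonical promoter in at least 1 line, 31.0% in at least 2 and 5.16% in at least 6. At the last share, short lists such as those below may well hold no gene with a peak in at least 6 lines. Of 14 flanking genes at 3p21.3, 10 (71.4%) had a peak at the canonical promoter in at least 1 line, 6 (42.9%) in at least 2 and none in at least 6. Of the 9 other RASSF family genes, 4 (44.4%) had one in at least 1 line, 3 (33.3%) in at least 2 and none in at least 6. RASSF5, named after its values were seen, was highest at 5 lines.

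Of 19 genes of the Hippo kinase pathway, the kinases, adaptors and transcription factors to which RASSF1A is linked, 11 (57.9%) had a peak in at least 1 line, 7 (36.8%) in at least 2 and none in at least 6. The shares over all protein-coding genes were 49.2%, 31.0% and 5.16%. Of the 7 other GATOR genes, the partners of NPRL2, 4 (57.1%) had one in at least 1 line, and 1 (14.3%), MIOS, in at least 6. MIOS, a GATOR2 subunit, had it in all lines but SJNB-1. Of 9 other genes of hyaluronan synthesis, binding and breakdown, 2 (22.2%) had a peak in at least 1 line and 1 (11.1%) in at least 2. No gene of these lists had a peak in 4 lines of one MYCN group and 0 of the other, which 26 protein-coding genes had, 16 of them in the MNA lines.

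The pattern of the RASSF1 long promoter over the lines was shared by other genes. Outside 1 Mb of the cluster, 129 protein-coding genes had a promoter peak in exactly the same 7 lines at 1 or more of their TSS. Any TSS of a gene could count here, so this number cannot be set against the shares for canonical promoters. No share over all genes was computed for it. By Pearson's r of covered length with RASSF1 over the 8 lines, the most alike were GATAD2B (0.975), CAMTA1 (0.97), NOD2 (0.931) and SLC5A2 (0.928). At GATAD2B, for example, the covered length was 700 to 873 bp in the MNA lines, 715 and 725 bp in SJNB-1 and SH-SY5Y, 314 bp in SK-N-AS and 0 bp in CLB-GA. The 0 bp of CLB-GA was fixed by the choice of genes, and r is given as a description.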

How the data were processed

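Genomic DNA of 8 NB cell lines was sheared, captured with the MethylCollector kit (MBD2) and sequenced. According to the submitters' notes the authors aligned reads to GRCh37 with Bowtie 0.12.7 and called peaks per line with MACS. The deposited lists give the start, end and score of each peak, the score being the one the authors' peak caller wrote. Depth per line, and whether an input control entered the calls, cannot be read from these lists. GENCODE release 44, placed on GRCh37, gave the TSS and gene bodies.

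For each line, bp of each window or body under peaks were computed in Python 3.11.15 (numpy 2.4.6, pandas 2.3.3). Groups followed the MYCN label. Fisher's exact test was run on all windows or bodies with a peak, with Benjamini-Hochberg adjustment, and a sign-flip permutation test compared RASSF1 starts. TSS of RASSF1 within 500 bp were grouped, and the next coding group downstream (the middle start) was the short isoform, with RASSF1C added after seeing the data. All 10 genes were named, the genes of the comparison lists if they had a peak in at least 6 lines or separated the groups, and the 5 genes most like RASSF1, of which 1 is not reported here. Members and lists were chosen with earlier results of these data known. Alternatives varied the score, list length, overlap, window, merging and lines. Sequences are those of the reference, outside annotated untranslated regions.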

Additional observations from a re-analysis of the deposited data

Results flagged for a closer look

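Of 19 groups of 4 lines examined, 4 held a line that stood apart from the other 3 by the gap to its nearest neighbour relative to the range (Dixon's criterion). Chance alone gives about 1 in 20 groups for normally distributed values. That rate does not hold for promoter windows with lines at 0 bp, so the number of flagged groups cannot be set against it. N206 had 10.7% of the cluster under peaks, and the other MNA lines 7.94% to 8.33%. The other 3 cases are single copy lines with a peak in a window where the remaining 3 lines had 0 bp: CLB-GA at ZMYND10 (322 bp), SH-SY5Y at HYAL2 (1485 bp) and SJNB-1 at the start shared by HYAL3 and NAA80 (536 bp). With 3 equal values any nonzero value meets the criterion.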

How the results depend on the processing

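With the short window at 0 bp in all lines, the RASSF1 difference between long and short start could not turn negative under the alternatives, and it stayed positive. It missed the threshold with a score of at least 100 (259.4 bp, exact permutation p = 0.5, with 2 lines in place of 7 having the long peak) and with lists of equal length (686.1 bp, exact permutation p = 0.0625). Both settings leave fewer lines with a peak, and these are the smallest p possible with 2 and 5 such lines. Without 1 line at a time it was 860.9 to 1037 bp (exact permutation p from 0.0156 to 0.0312), and with RASSF1C as the short isoform, an alternative chosen after seeing the data, 907.5 bp. The lines with the long peak numbered 6 or 7, and the genes with a promoter peak 5 or 6, without 1 line at a time. The latter count was 4 with windows of 500 bp on either side. No window or body passed the adjusted threshold under any setting (Fisher's exact test, smallest adjusted p = 1). With so few lines and so many windows the adjusted test could not call single windows, so this outcome does not speak to robustness. At an unadjusted p below 0.05, windows numbered 55 with a score of at least 100 and 176 to 346 under the other settings with all lines. Without 1 line they numbered 673 to 875. Group differences in single genes, none of which passed the test, did not all keep their direction: at HYAL1 the share of MNA lines with a peak minus that of single copy lines was 0 percentage points and ranged from -50 to 25 over the alternatives. No paired analysis was possible because the lines of the MNA and single copy groups are unrelated and their replicate numbers only follow accession order. Presence of a peak depends on depth, copy number and mappability, none of which the lists record.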
